A study of Mus musculus with 2 samples.

Results

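Peaks of H3K27me3, the trimethylated lysine 27 of histone H3, were read over 9 genes of retinoic acid signalling: the receptors Rara, Rarb and Rarg, the cellular binding proteins Crabp1 and Crabp2, the degrading enzymes Cyp26a1, Cyp26b1 and Cyp26c1, and the synthesizing enzyme Aldh1a2. They were taken as a named list, drawn up with earlier results of these data known, and are 9 of the 21755 protein-coding genes on the 19 autosomes and the X chromosome. The study holds a single group, 2 biological replicates of E14TG2a.4, an established male embryonic stem cell line of mouse strain 129/Ola, which the labels place at 3.5 days of embryonic age. No treatment, differentiation or genetic change is given, so no condition was compared and no test was made. No control library was analysed here. A bulk profile cannot tell a mark in a share of the cells from a weaker mark in each of them.

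Retinoic acid is made from vitamin A by retinaldehyde dehydrogenases and binds nuclear receptors that sit on DNA as partners of the retinoid X receptors. It drives embryonic stem cells towards neural and other fates, and CYP26 enzymes clear it, so that source and sink cells set its level in the embryo. H3K27me3 is laid down by Polycomb repressive complex 2 and in embryonic stem cells is known for covering the starts of developmental genes that are silent.

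The receptors bind direct repeats of a short hexamer, and the response element with a spacer of 5 bases (DR5) is the textbook form. Such repeats were searched on both strands within 5 kb of every annotated transcript start, with AGGTCA, the consensus hexamer, and its variants, namely AGTTCA with a changed middle, GGGTCA with a changed first base, and GGTTCA with both. At least 1 DR5 was present at Rara, Rarb, Rarg and Cyp26a1, that is 4 of the 9 genes, beside 1451 of 21755 protein-coding genes (6.67%). Each receptor gene has 7 annotated starts and so more searched sequence, and within 5 kb of the gene start alone a DR5 was found at Cyp26a1 only, 1 of 9 genes, beside 3.68%. The 5 repeats are printed because some lie inside H3K27me3 peaks and others far from them. The hexamers are in capitals, and each sequence reads 5′ to 3′ along the strand that carries the repeat, on GRCm38 (mm10).
Rarb, 22 bp downstream of the internal start of Rarb-201, minus strand, chr14:16575507-16575535: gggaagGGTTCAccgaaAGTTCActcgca
Cyp26a1, 14 bp upstream of the gene start, minus strand, chr19:37697770-37697798: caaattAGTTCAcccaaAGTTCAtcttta
Cyp26a1, 1881 bp upstream of the gene start, plus strand, chr19:37695903-37695931: ctgcagGGGTCAcaggcGGGTCAggctaa
Rara, 396 bp upstream of the internal start of Rara-202, plus strand, chr11:98960002-98960030: caggcgAGTTCAgcaagAGTTCAgccgaa
Rarg, 479 bp upstream of the internal start of Rarg-206, minus strand, chr15:102250811-102250839: ggtcagGGTTCAaagtgAGGTCAcggtat

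Both Cyp26a1 repeats lay wholly inside peaks of both replicates (17 of 17 bp). Neither replicate covered any of the Rara repeat, whose nearest peak was 18.4 kb away in replicate 1 and 18.7 kb away in replicate 2, or of the Rarg repeat, whose nearest peak was 4.9 kb away in each. The Rarb repeat divided the replicates. It was 307 bp from the nearest peak in replicate 1 and wholly inside a peak in replicate 2. That replicate 2 peak, chr14:16575329-16575701, was among the weakest of its list, with a signal of 2.60 and a −log10 q of 1.31. The replicated list of each run covered 14 of the 17 bp. The Rarb and the proximal Cyp26a1 sequences are known as classical retinoic acid response elements of these promoters. A match of letters is a description and does not show that a receptor is bound. Repeats with shorter spacers were more frequent over all genes: with 2 bases (DR2) they occurred at Crabp2, Rarg and Cyp26a1, beside 18.4% of genes, and with 1 base (DR1) at Crabp1, Rara and Rarg, beside 13.2%. The DR1 of Rarg shares a hexamer with its DR5. Within 1 kb of the gene start, a DR5 was found at Cyp26a1 alone of the 9 genes, beside 0.593% of all. A repeat with a spacer of 2 bases lay 1135 bp upstream of the Crabp2 start at chr3:87947519-87947544 and was covered in both replicates (14 of 14 bp).
Crabp2, plus strand: gtccccAGTTCAccAGGTCAgggctg

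RefSeq promoter sequences (GRCm38.p6) were matched for 8 of the 9 genes. Stretches directly upstream of the annotated start are printed for 4 genes that range from few to many CpG and from no cover to full cover. Each reads 5′ to 3′ along the gene's own strand, with every CpG in capitals.
Cyp26a1, chr19:37697558-37697797: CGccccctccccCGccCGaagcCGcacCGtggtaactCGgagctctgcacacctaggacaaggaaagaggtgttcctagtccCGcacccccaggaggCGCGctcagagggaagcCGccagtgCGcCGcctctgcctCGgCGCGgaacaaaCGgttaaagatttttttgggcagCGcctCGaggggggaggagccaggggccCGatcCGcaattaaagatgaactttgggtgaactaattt
Cyp26c1, chr19:37685430-37685580: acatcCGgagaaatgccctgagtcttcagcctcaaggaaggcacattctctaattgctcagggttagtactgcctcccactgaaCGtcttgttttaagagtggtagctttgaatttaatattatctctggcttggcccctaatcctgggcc
Aldh1a2, chr9:71215539-71215788: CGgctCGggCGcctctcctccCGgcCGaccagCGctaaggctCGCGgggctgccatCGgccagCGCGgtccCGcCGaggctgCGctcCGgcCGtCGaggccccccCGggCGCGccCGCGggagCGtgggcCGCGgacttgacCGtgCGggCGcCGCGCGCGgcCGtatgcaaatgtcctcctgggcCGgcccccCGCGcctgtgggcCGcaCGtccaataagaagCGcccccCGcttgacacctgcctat
Cyp26b1, chr6:84593909-84594060: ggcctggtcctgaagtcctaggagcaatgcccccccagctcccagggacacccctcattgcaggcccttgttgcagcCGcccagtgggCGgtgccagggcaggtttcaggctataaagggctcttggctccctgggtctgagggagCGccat

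The Aldh1a2 stretch held 40 CpG in 250 bp, yet peaks covered 75 bp of it in replicate 1 and 33 bp in replicate 2. The Cyp26c1 stretch held 2 CpG in 151 bp and was covered end to end in both replicates. Between these, the Cyp26a1 stretch held 20 CpG in 240 bp, with 170 and 172 bp covered. No peak touched the Cyp26b1 stretch, which held 3 CpG in 152 bp. In the Cyp26a1 sequence the proximal repeat is readable near the right end on the complementary strand.

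Of the 9 genes, 8 had a peak in both replicates within 1 kb of the gene start (a window of 2001 bp, called marked from here on), beside 26.1% of all protein-coding genes, and the exception was Rarb. Within 5 kb of the gene start the same 8 had a peak in both replicates, beside 33.9%. When every annotated transcript start was allowed, all 9 had one within 1 kb, beside 29.4%, and within 5 kb, beside 36.8%. The first base of the gene lay inside peaks of both replicates at 3 genes (Crabp2, Cyp26a1 and Cyp26c1), beside 9.59%. The window was covered to at least 50% in both replicates at 5 genes (Crabp1, Crabp2, Cyp26a1, Cyp26c1 and Aldh1a2), beside 14.0% of all genes. Common bases, those inside peaks of both replicates, filled at least 50% of the gene body in 5 genes (Crabp1, Crabp2, Cyp26a1, Cyp26b1 and Cyp26c1), beside 4.48%. The median over the 9 genes was 1657 common bases within 1 kb of the start and 64.6% of the gene body. Both medians over all protein-coding genes were 0, and most of those genes were not marked. With marked genes alone, the medians were 1688 common bases and 75.1% of the body for the members, beside 1021 and 7.35% for all. The receptors had the fewest common bases within 1 kb, from 0 at Rarb to 461 at Rara. In a narrower window reaching 0.5 kb from the start, Rara and Cyp26b1 also lost the call and 6 genes kept it, beside 21.4% of all genes. Rarg kept it without a common base there, from a replicate 1 peak and a replicate 2 peak that did not overlap.

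**Figure D1:**
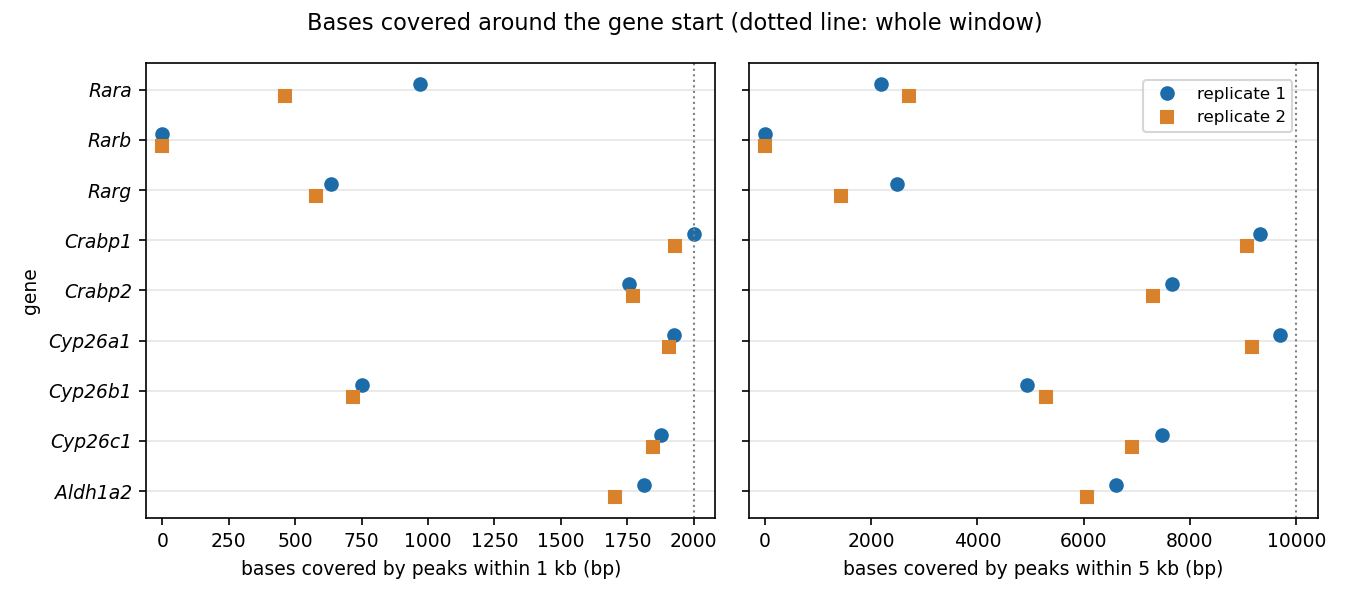
Bases inside H3K27me3 peaks within 1 kb (left, bp out of 2001, dotted line) and within 5 kb (right, bp) of the gene start for the 9 genes, with a circle for replicate 1 and a square for replicate 2. On the left the binding proteins, Cyp26a1, Cyp26c1 and Aldh1a2 have at least 1704 bp in each replicate, while Cyp26b1 and the receptors have at most 971 bp.

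**Figure D2:**
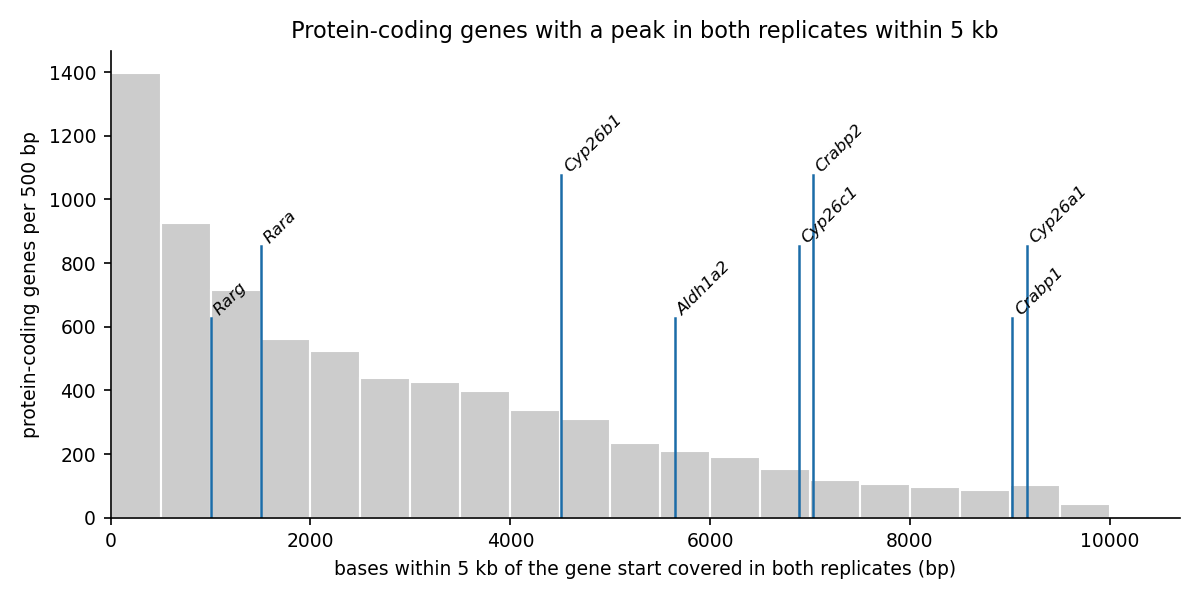
Number of protein-coding genes (per 500 bp) by the bases within 5 kb of the gene start that are covered in both replicates, for the 7382 genes with a peak there in both, with a line at the value of each of the 8 members among them. Cyp26a1 and Crabp1 stand near the right end with 9171 and 9026 bp, Rarg and Rara stand at 1000 and 1508 bp, and Rarb, with no such peak, is not drawn.

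The peaks over each gene are drawn by replicate in the plot of the loci. Replicate 1 had 63651 peaks over 53.6 Mb with a median length of 547 bp, and replicate 2 had 98582 peaks over 58.4 Mb with a median length of 373 bp. The signal of a peak is the authors' own value with no stated scaling, and it is used here only to place a peak within its own list. Its median was 4.66 in replicate 1 and 4.32 in replicate 2, and its highest values were 22.0 and 21.8. No source used here gives the reads per library, and a stretch with no peak may have had too few reads. Among markers of the cell type, the starts of Pou5f1, Nanog and Sox2, the pluripotency factors, carried no base of a peak within 1 kb in either replicate. Only 26.1% of all protein-coding genes were marked, so most genes lacked this call too.

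**Figure D3:**
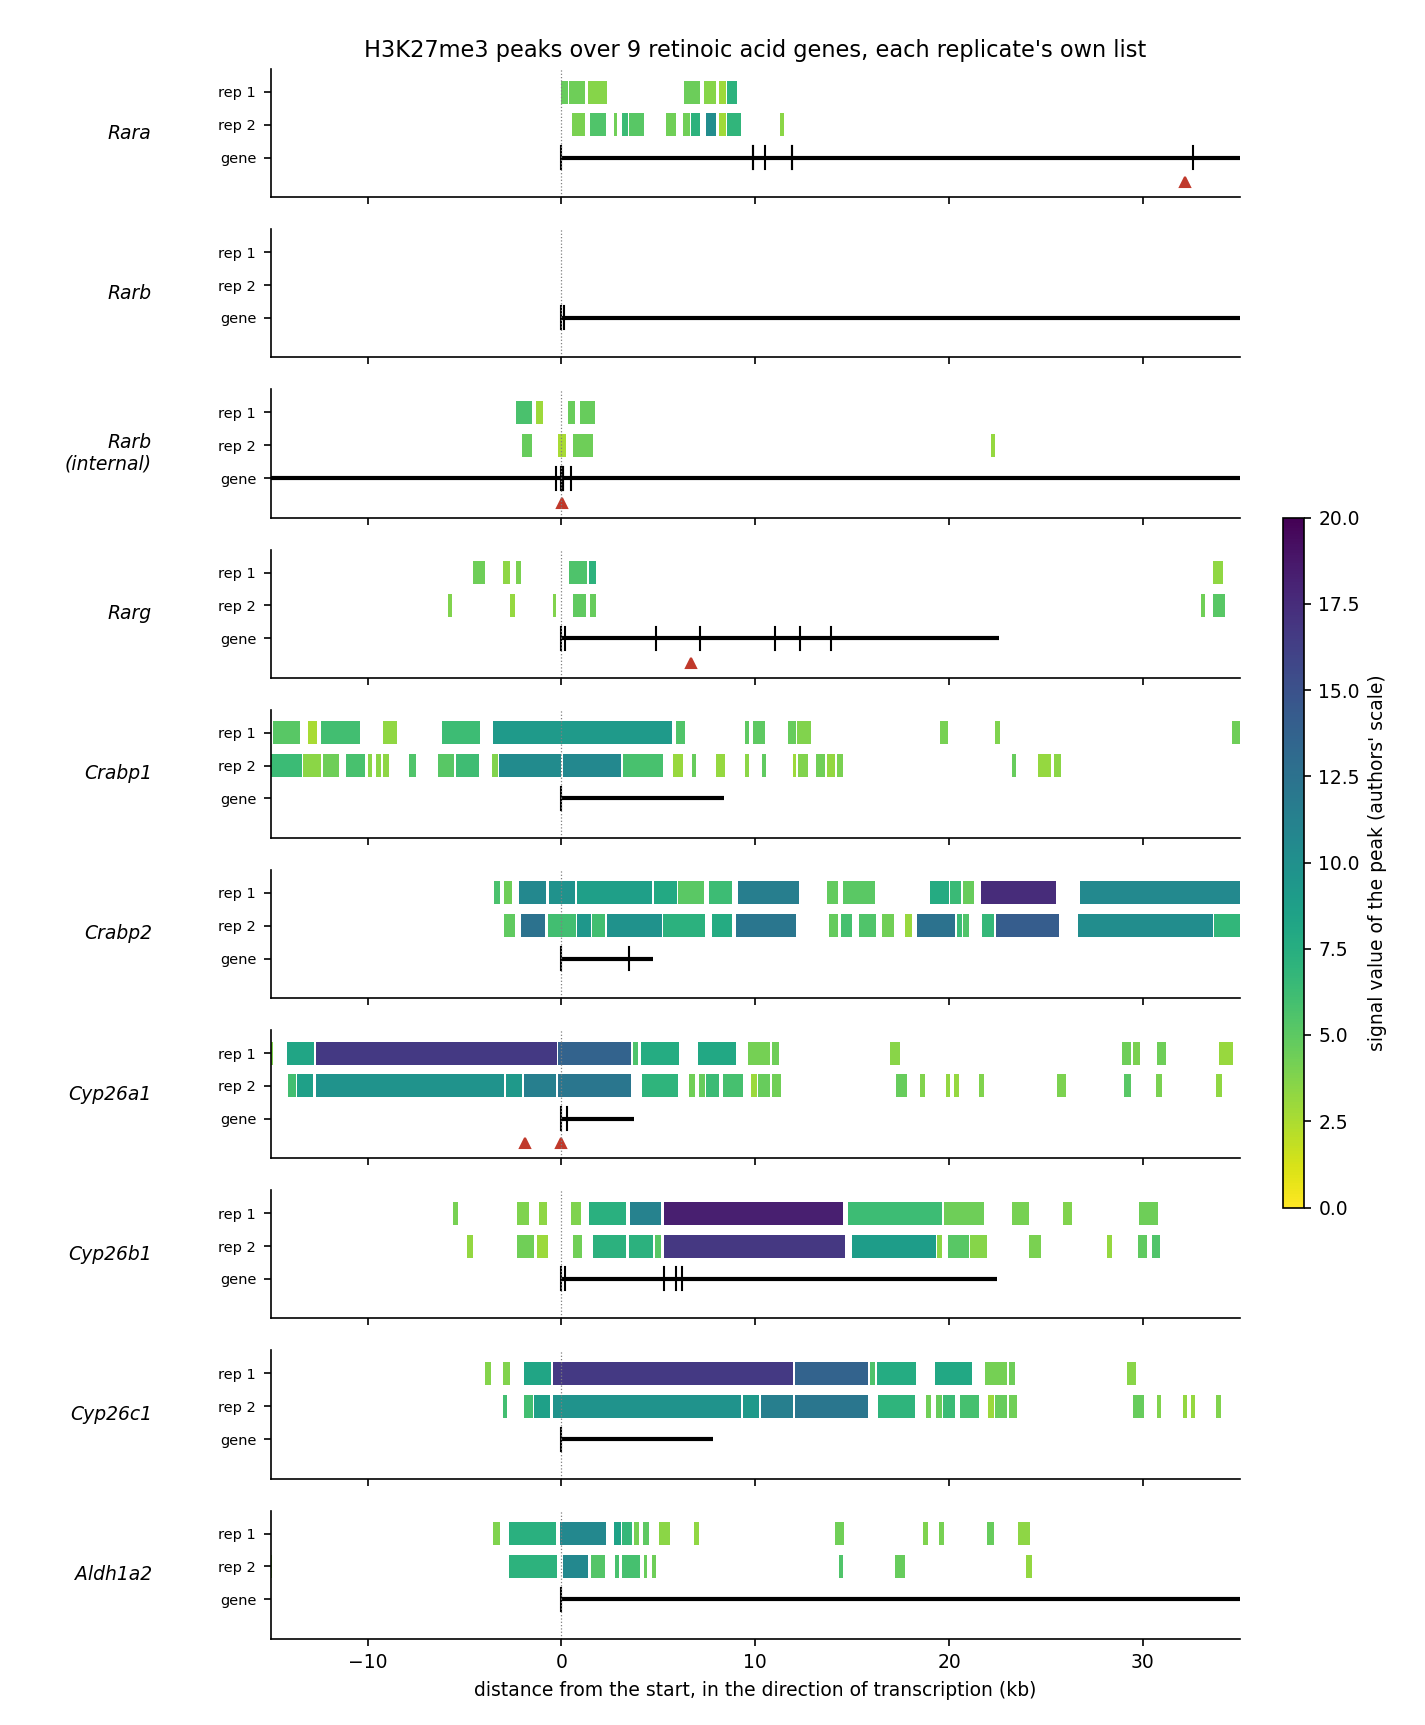
Peaks of replicates 1 and 2 around each gene start, with Rarb also drawn around its internal Rarb-201 start (x axis: distance in kb along the direction of transcription), coloured by signal, with transcript starts as ticks, the gene as a black line and DR5 repeats as red triangles. Cyp26a1, Cyp26b1, Cyp26c1, Crabp1 and Crabp2 are covered over most of their length, the receptors carry separated short peaks, and the Rarb gene start has none.

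Rara, the receptor most broadly expressed in embryos (chr11:98927818-98974942, plus strand), had 971 bp of peaks within 1 kb of its start in replicate 1 and 461 bp in replicate 2. The first base of the gene was inside a peak in replicate 1 only. The signal of the start peaks was near the middle of each list, at 4.66 and 4.05, above 49.0% and 39.5% of peaks. A further group of peaks lay between 6.3 and 9.3 kb from the start and held the strongest peak of the gene body in each replicate, with a signal of 7.12 in replicate 1 and 10.3 in replicate 2. They ended just before the downstream promoter of Rara-204 and Rara-201, at 9.9 kb, where the windows held 204 and 184 bp in replicate 1 and 406 and 386 bp in replicate 2. The start of Rara-202, at 32.6 kb, had no peak within 5 kb. Common bases made up 7.66% of the gene body, and all 3612 of them were intronic: none of the 4365 exonic bases was covered in both replicates.

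Rarb, the receptor that retinoic acid itself induces (chr14:16430839-16819156, minus strand), had no peak within 5 kb of its annotated gene start in either replicate. Peaks were instead grouped around 5 internal starts 243.3 to 244.1 kb inside the gene, at the retinoic acid-inducible promoter of Rarb-201 that holds the response element shown above. Within 1 kb of the Rarb-201 start the peaks covered 421 bp in replicate 1 and 761 bp in replicate 2, but only 100 bp were common. The other 4 starts of the group had between 77 and 598 common bases. Within 5 kb the cover was 2258 and 1904 bp, with 1243 bp common. Each replicate had 4 peaks in the 388318 bp of the gene, with top signals of 5.75 and 4.63, and common bases made up 0.32% of the gene body. Its 3.7 kb domain also holds the start of Gm48162, a gene on the opposite strand, and the assay has no strand. That domain is a chain of short blocks of common bases, and the Rarb-201 start lies in a gap between them. Joined only across gaps of up to 1 kb, the longest domain at Rarb was 1.0 kb.

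Rarg, the receptor best known from skin and skeletal tissues (chr15:102234938-102257517, minus strand), had 633 bp of peaks within 1 kb of its start in replicate 1 and 577 bp in replicate 2, of which 419 were common. The first base was outside peaks in both, and the common bases of the window lay within the first 1.3 kb of the gene. Signals there were 5.59 and 4.92. Of its 7 transcript starts, the 5 that lie 4.9 to 13.9 kb inside the gene had no covered base within 1 kb in either list. Common bases covered 4.41% of the body. Within 5 kb of the start, 34.3% of the bases covered in either replicate were covered in both, the lowest such share of the 8 genes with a peak there, whose median was 84.4%.

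Crabp1, which binds retinoic acid in the cytoplasm and is linked with its breakdown (chr9:54764748-54773110, plus strand), was covered over 2001 of 2001 bp around its start in replicate 1 and 1930 bp in replicate 2. In replicate 1 a single peak of 9.25 kb ran from 3.5 kb upstream to 5.7 kb downstream of the start. In replicate 2 the same stretch was split into several peaks, and a gap of 71 bp fell on the first bases of the gene. Signals were 9.20 and 10.7, above 93.3% and 97.3% of the peaks of their lists. Of the bases covered in either replicate within 5 kb, 96.3% were covered in both.

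Crabp2, which carries retinoic acid to the nucleus and its receptors (chr3:87948666-87953376, plus strand), had 1758 and 1773 bp covered around its start and common bases over 94.6% of its body. The peak over the start itself had a signal of 9.78 in replicate 1 and 6.03 in replicate 2, and the next peak upstream had 10.7 and 12.4. Common bases joined across gaps of up to 3 kb formed a domain of 59.6 kb, chr3:87945716-88005313, the 16th longest of 16987 in these cells, whose median length was 1521 bp. The starts of Nes, the neural progenitor filament nestin, and Bcan, the brain proteoglycan brevican, lie in the same domain, and the Nes start had 1744 and 1601 bp covered. Joining only across gaps of up to 1 kb left 15.1 kb at Crabp2, so the long domain is a chain of shorter blocks.

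Cyp26a1 and Cyp26c1, which oxidize retinoic acid to products for removal, lie 4.4 kb apart on the plus strand (Cyp26c1 at chr19:37685581-37693398 and Cyp26a1 at chr19:37697798-37701536). They shared 1 domain of 26.4 kb, chr19:37682554-37709001, and so are not independent members. Cyp26a1 had 1925 and 1908 bp covered around its start, and Cyp26c1 had 1876 and 1848 bp. The whole Cyp26c1 body was covered in both replicates, by a single peak of 12.4 kb in replicate 1 and of 9.73 kb in replicate 2, each longer than 99.97% of the peaks of its list. Common bases covered 95.9% of the Cyp26a1 body. The replicate 1 peak that spans Cyp26c1 reached to 247 bp upstream of Cyp26a1 and had a signal of 16.7. In replicate 2 the top signals were 9.75 over Cyp26c1 and 12.1 over Cyp26a1. Both replicates left the same short gap just upstream of the Cyp26a1 start: it was 76 bp long and ended 170 bp before the start in replicate 1, and was 93 bp long and ended 172 bp before it in replicate 2.

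Cyp26b1, the enzyme of hindbrain, limb and gonad (chr6:84571414-84593908, minus strand), had the strongest peak of the 9 genes and yet a sparsely covered gene start. Within 1 kb of the gene start the cover was 750 bp in replicate 1 and 716 bp in replicate 2, with signals of 3.84 and 4.34, and the first base was outside peaks in both. The top peak began 5.3 kb inside the gene, was 9.20 kb long in replicate 1 and 9.36 kb in replicate 2, and had signals of 18.4 and 16.8, above 99.98% and 99.92% of the peaks. The second annotated start, 162 bp inside the gene, was covered as sparsely, with 595 and 605 bp. The starts further in, Cyp26b1-204, Cyp26b1-203 and Cyp26b1-205, lie at 5.3, 5.9 and 6.2 kb, and their windows held 1817, 1817 and 1917 bp in replicate 1 and 1725, 1836 and 1946 bp in replicate 2. Common bases covered 85.5% of the body. As at Rarb, the annotated gene start was the less covered one, and the denser cover lay at the internal starts.

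Aldh1a2, the retinaldehyde dehydrogenase that makes most retinoic acid of the early embryo (chr9:71215789-71296243, plus strand), had 1812 bp covered around its start in replicate 1 and 1704 bp in replicate 2. Signals were 10.7 in each. Common bases made up 4.53% of the 80455 bp body, and the domain at the start was 7.1 kb long. Separate short peaks lay further in, from 14.1 to 24.2 kb in replicate 1 and from 14.3 to 24.3 kb in replicate 2, and a few beyond 60.7 kb. Both replicates had a gap at the promoter, from 265 to 75 bp upstream of the start in replicate 1 and from 218 bp upstream to 80 bp downstream in replicate 2, and the CpG-rich sequence printed above overlaps it. Across the gene and 5 kb on each side, replicate 1 had 15 peaks and replicate 2 had 12, of which 8 in each touched one in the other list.

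Domain lengths thus ordered as Crabp2 (59.6 kb), the shared Cyp26a1 and Cyp26c1 domain (26.4 kb), Cyp26b1 (24.1 kb), Crabp1 (21.1 kb), Aldh1a2 (7.1 kb), Rarb (3.7 kb), Rara (2.8 kb) and Rarg (1.2 kb). Each is the longest domain over the gene body, and at Rara and Rarb it lay more than 5 kb inside the gene. In the main lists a domain of at least 10 kb lay over 5 of the 9 genes, beside 6.67% of all protein-coding genes. This count depended on the list. Aldh1a2 also passed 10 kb with the relaxed lists (10.9 kb), and Aldh1a2 (12.5 kb) and Rara (11.8 kb) did with the first run's replicated list. In lists called on a single replicate, the Rara domain was 2.8 kb without replicate 2 and 10.9 kb without replicate 1, and the Rarg domain was 6.3 and 7.7 kb, so the order at the lower end changed with the replicate. In replicate 2 alone both passed Aldh1a2 (7.6 kb), and in replicate 1 alone Rarg passed Rarb (4.1 kb) and Rara. The Crabp1 domain was 35.5 kb in replicate 2 alone and 21.3 kb in replicate 1 alone. Receptors remained below Crabp1, Crabp2 and the Cyp26 genes in both lists. The order also changed with the joining distance. Joined within 1 kb, the shared Cyp26a1 and Cyp26c1 domain (21.3 kb) and Cyp26b1 (21.2 kb) passed Crabp2 (15.1 kb), and Rarb (1.0 kb) came last. Joined within 5 kb, Rara (8.5 kb) passed Aldh1a2 (7.1 kb), and Rarg (4.4 kb) passed Rarb (3.7 kb).

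Of the 16 nearest coding neighbours that are not members themselves, 11 were not marked at their start and 5 were, a share near the 26.1% of all genes. Around Crabp1, the starts of Wdr61 and Ireb2 had no peak within 1 kb, and around Rarg the same held for Itgb7 and Gm9918. On the other side of Crabp2 from Nes, Isg20l2 had none. Exoc6, a vesicle-tethering subunit whose gene ends 1.5 kb before Cyp26c1, had 537 and 492 bp covered at its own start, and its paralog Exoc6b beside Cyp26b1 had 5 and 0 bp. Next to the receptors, the starts of Cdc6 and Top2b had no peak, whereas Gjd3 near Rara had 1905 and 1407 bp and Thrb, the thyroid hormone receptor beyond Rarb, had 1491 and 1252 bp. Dysf, on the far side of Cyp26b1, had 1321 and 1286 bp. Aqp9 beside Aldh1a2 had 1007 bp in replicate 1 and none in replicate 2, Myof beyond Cyp26a1 had none and 172 bp, and Polr2m had none in either.

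CpG content was read as the observed over expected ratio of CpG within 500 bp of each start. Across the 33 transcript starts of the 9 genes, the 22 marked starts had ratios from 0.221 to 0.929 with a median of 0.651, and the 11 unmarked starts from 0.099 to 0.636 with a median of 0.241. Starts of a gene share sequence and peaks, so these are a description, and all 11 unmarked starts belonged to the receptor genes. The 33 starts include those of retained-intron, processed and nonsense-mediated decay transcripts. At the gene start alone the median ratio of the 9 genes was 0.486. It was 0.558 over all protein-coding genes and 0.634 over the marked ones. Within Rarb, the unmarked gene start had a ratio of 0.100 and the marked Rarb-201 start 0.779. All 5 starts of Cyp26b1 were marked, and the gene start had 0.221 with 670 common bases and Cyp26b1-204 had 0.847 with 1696. Some starts went the other way. Crabp2-202, a retained-intron transcript starting 3.5 kb inside the gene, had a ratio of 0.231 with all 2001 bp covered in both replicates. Common bases covered 94.6% of that gene's body. Cyp26c1 had a ratio of 0.388. Rara-202 and Rarg-202 had 0.636 and 0.631 with no peak.

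**Figure D4:**
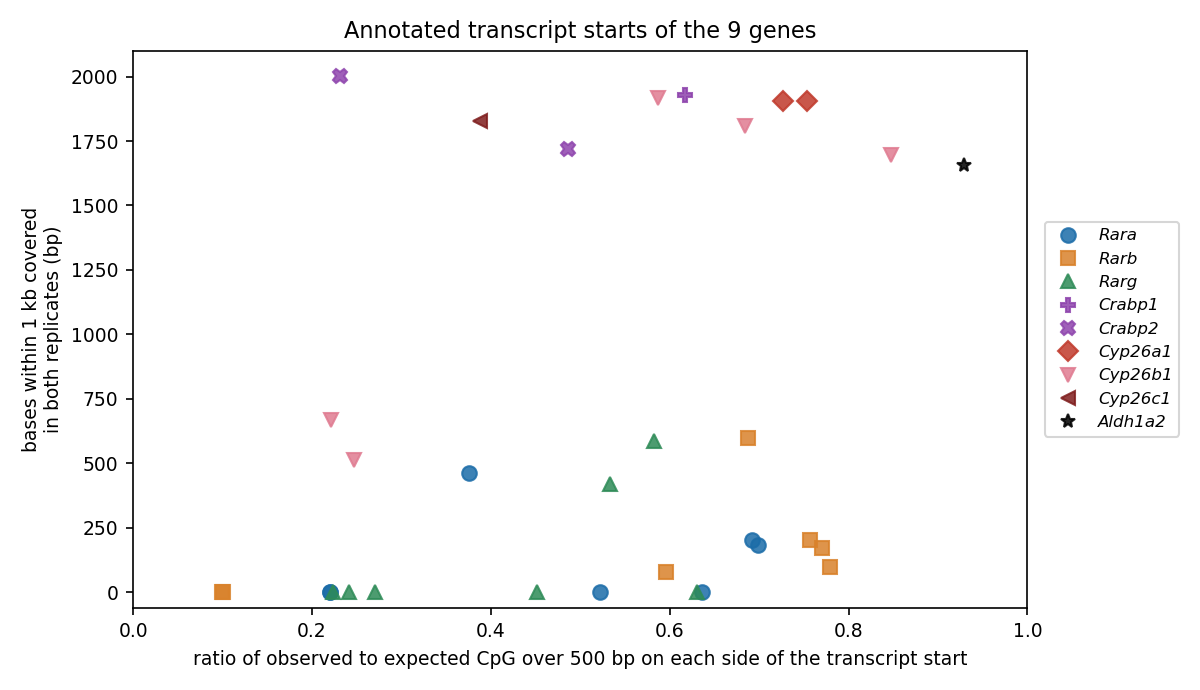
Bases within 1 kb of each of the 33 transcript starts covered in both replicates (bp, y axis) against the observed over expected CpG ratio within 500 bp of the start (x axis), with a symbol for each gene. The starts with a ratio under 0.2 are both at Rarb and carry no common base, and starts above it range from none to 2001 bp.

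Among 31 other genes of the retinoid pathway, 13 were marked at the gene start (41.9%, beside 26.1% of all genes). Of the retinoid X receptors, the DNA-binding partners, Rxra had 1532 and 1488 bp covered and Rxrg 1645 and 1580 bp, and Rxrb had none. Aldh1a3, a second synthesizing dehydrogenase, had 1832 and 1640 bp, and Aldh1a1 had none. Of 10 genes that interconvert retinol and retinal, 2 were marked (20%), near the 26.1% of all genes. Rdh10, which makes the retinal used for synthesis, had 939 and 872 bp. Dhrs3, which returns retinal to retinol, had 1007 and 779 bp. The other 8, among them Rdh11, Adh1, Adh5 and Adh7, had 0 bp covered in both. In the group for binding and uptake 4 of 6 were marked (66.7%, beside 26.1%). The cover was 1666 and 1568 bp at Rbp4, the plasma retinol carrier, and 962 and 1327 bp at Stra6, its receptor. It was 670 and 1075 bp at Rbp7, and 1460 and 825 bp at Fabp5. Lrat, which esterifies retinol for storage, was covered over 1922 and 1921 bp, close to the Cyp26a1 values. Dgat1, Nrip1 and Ncoa1 were marked with at most 1110 bp in either replicate. The corepressor gene Ncor1 and the coactivator gene Ncoa3 had no peak. None of the 31 had common bases over 50% of its body, beside 4.48% of all genes, so this count is near the share over all genes.

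**Figure D5:**
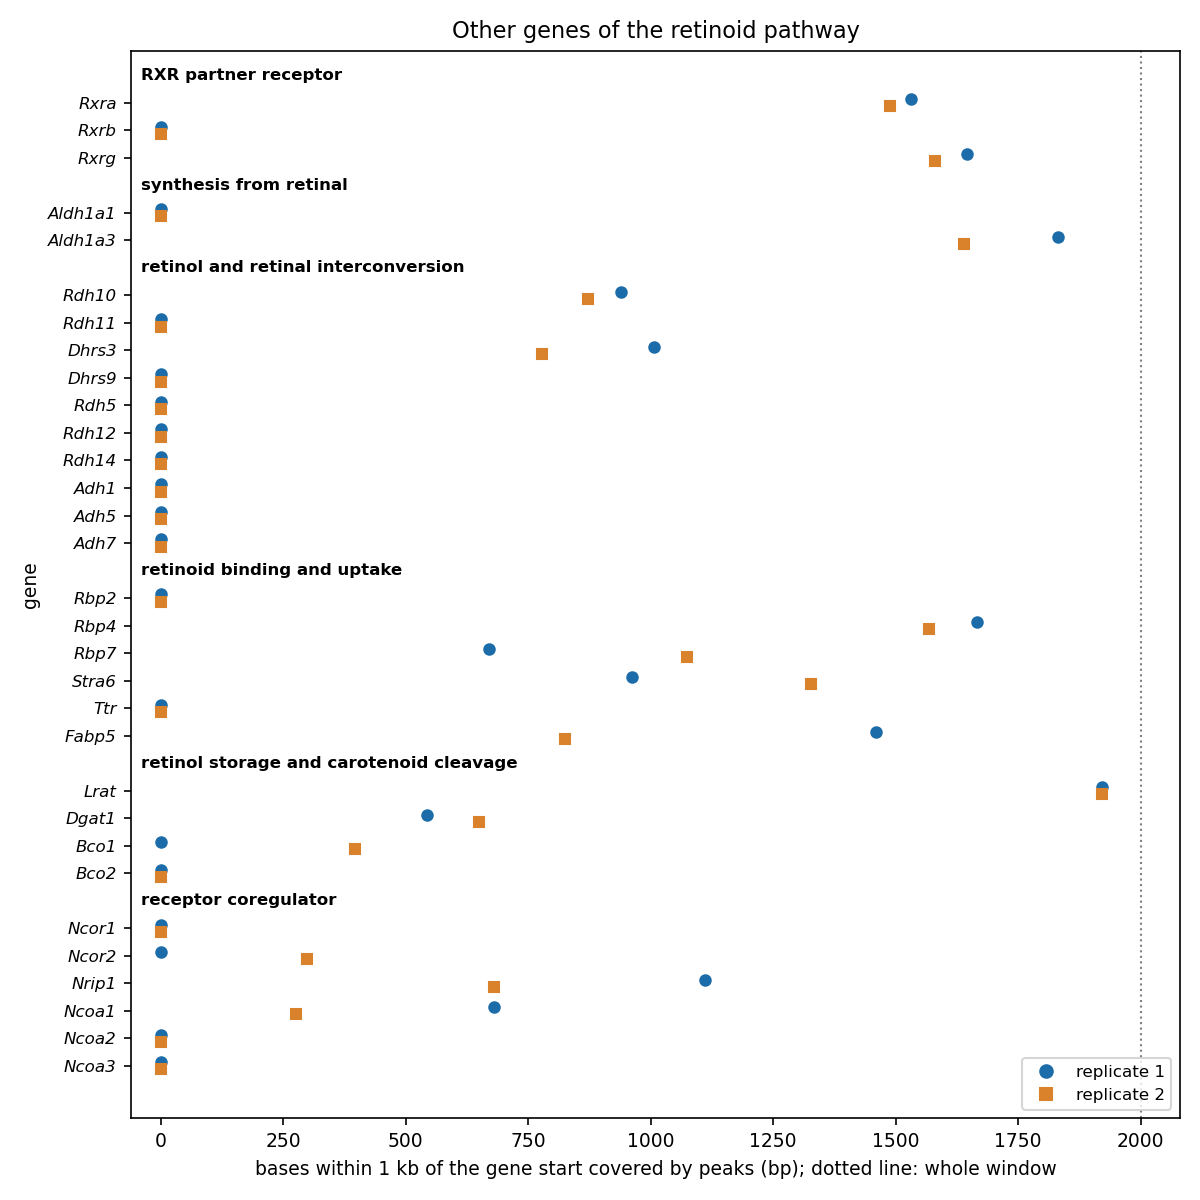
Bases inside peaks within 1 kb of the gene start (x axis, bp, the dotted line at 2001) for the 31 other retinoid pathway genes, grouped by role, with a circle for replicate 1 and a square for replicate 2. Lrat, Aldh1a3, Rbp4, Rxrg and Rxra have at least 1488 bp in each replicate. Of the 10 genes that interconvert retinol and retinal 8 are at 0, and 26.1% of all protein-coding genes were marked.

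Of 10 genes known to respond to retinoic acid, 9 were marked (90.0%, beside 26.1%), and the median of the list was 1662 common bases within 1 kb. Hoxb1, which holds response elements of its own, was covered over 2001 of 2001 bp in each replicate, Hoxb4 over 1744 and 1664 bp, and Hoxd4 over 2001 and 1846 bp. These are genes of Hox clusters, whose neighbours share domains. The homeobox genes Meis1 and Meis2 had 1915 and 2000 bp and 1504 and 1700 bp, and the orphan receptor genes Nr2f1 and Nr2f2 had 945 and 895 bp and 2001 and 1749 bp. Cdx1 and Tgm2 were also marked in both. Stra8, a germ cell gene switched on by retinoic acid at meiosis, had 465 bp in replicate 1 and none in replicate 2.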

How the data were processed

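H3K27me3 was measured by histone ChIP-seq in 2 biological replicates, per the labels. Per the file headers and accompanying notes, the authors deposited mm10 peak lists from 2 processing runs, and the list called on each replicate alone in the second run (pseudoreplicated) gave the main values. Each deposited peak has a signal value and a −log10 p and −log10 q from the authors. Not given in the sources used here: aligner, peak caller, thresholds and signal scaling. An archived mm9 list was not used, because its coordinates belong to another build. Depth is unknown, so no interval was computed.

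Genes and transcript starts came from GENCODE mouse release 21 on GRCm38, and promoter sequences from RefSeq on GRCm38.p6. A gene was marked when a peak overlapped its window (1 kb each side of the gene start) by at least 1 bp in each replicate. Common bases within 3 kb of each other were joined to domains. Coordinates are 1-based. The CpG ratio used 500 bp on each side of a start. Python 3.11.15, NumPy 2.4.6, pandas 2.3.3, Matplotlib 3.10.9 and SAMtools 1.23.1 were used, and the interval and repeat searches were tested on simulated data.

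Members and gene lists were chosen with earlier results of these data known, and some genes of these lists are not reported here. Counts stand beside those of all genes and no test was made. Named genes were all members, all marked and up to 12 unmarked other pathway genes, all responsive genes, genes starting inside a member's domain and the nearest coding neighbours. Alternatives were other windows, stricter and relaxed lists, the replicated lists of both runs, other joining distances and each replicate alone.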

Additional observations from a re-analysis of the deposited data

How the results depend on the processing

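Of the 9 genes, 8 were marked under each peak list tried, without either replicate, and with windows of 2.5 and 5 kb. Across these settings the share of all protein-coding genes marked ran from 26.0% to 34.2%. The count was 6 with a window of 0.5 kb, beside 21.4%, and 9 with any transcript start, beside 29.4%. It was 5 under a rule of 50% cover, beside 14.0%. Under that last rule the other pathway genes fell from 13 to 5 of 31. This is near the 14.0% of all genes that met the rule. All 9 had a peak within 5 kb of a transcript start under each list tried, beside 36.8% of all genes in the main lists. The median share of the gene body covered was 64.6%, and it was 72.6% with the relaxed lists, 84.9% with the replicated list of each run and with the list of both libraries together, and 73.5% to 74.4% when either replicate was left out. The median longest domain was 21147 bp, and it was 27256 bp with the relaxed lists, 28327 bp with the first run's replicated list, 27426 bp with the second run's, 28327 bp with the list of both libraries together, 12450 bp when joined within 1 kb, and 21278 to 26557 bp when either replicate was left out. The list of both libraries together was chosen as an alternative after seeing the data. Covered bases have no separate value under the 50% and 200 bp rules. No paired analysis was possible because the study has a single group. Peak cover depends on unknown depth: splits and gaps of peaks may differ with the number of reads, and this was not tested.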

Other observations

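Related gene families were read in the same way, with the 9 genes left out. Of 97 other cytochrome P450 genes, 14 were marked at the gene start (14.4%, beside 26.1% of all protein-coding genes) and 2 had common bases over at least 50% of the body (beside 4.48%), whereas all 3 Cyp26 genes met both. The most covered of the others within 5 kb of the start were Cyp46a1, the brain cholesterol hydroxylase, with 7520 bp in replicate 1 and 8058 bp in replicate 2, Cyp24a1, which inactivates vitamin D, with 6933 and 7035 bp, and Cyp1b1, with 7616 and 7100 bp. In the same window Cyp26a1 had 9697 and 9173 bp, more than any of these. Cyp26c1 had 7478 and 6917 bp and Cyp26b1 had 4929 and 5301 bp, both below Cyp46a1 in each replicate.

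Of 46 nuclear receptor genes other than the Rar genes, 27 were marked (58.7%, beside 26.1%), with a median of 478.5 common bases within 1 kb of the start. In the same window Rara had 461, Rarg 419 and Rarb 0. Nr2e1, Nr2f2 and Esrrg led the family with 9814, 8597 and 8077 common bases within 5 kb, where Rara had 1508. Among 20 other Aldh genes 4 were marked (20.0%), near the 26.1% of all genes. Of 13 Fabp and Rbp genes, read beside the Crabp genes, 5 were marked (38.5%, beside 26.1%).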
